A study of Mus musculus with 16 samples.

Results

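Molars of both jaws were compared with lower incisors in the mouse embryo, to find the genes that separate the 2 classes of teeth whichever jaw the molar comes from. The comparison took in all 16 samples of the series, 12 of molars (8 mandibular and 4 maxillary) and 4 of lower incisors. Each sample was RNA from a pool of 4 tooth germs dissected from C57BL6 wild type embryos at embryonic day 14.5 (E14.5), the cap stage, and no group carried a mutation or received a treatment. Signals were read on Affymetrix Mouse Gene 1.0 ST arrays, and every level is the log2 RMA signal, the background-corrected, normalized and summarized brightness of the probes of a gene. Tooth-class genes were those that differed between the 12 molars and the 4 incisors with an adjusted p under 0.1 and a fold above 2. The shared program held the genes that passed the same thresholds, in the same direction, in mandibular molars against incisors and again in maxillary molars against incisors. It held 57 genes higher in molars and 52 lower in molars, 109 of the 17218 genes tested in both comparisons. The tests that chose these genes are the ones printed beside them, and both comparisons use the same 4 incisors, so the second is not an independent repeat of the first. Only lower incisors were sampled, so in the maxillary comparison tooth class and jaw cannot be told apart. The sample sets described below, inferred from the values, also divide maxillary molars from incisors, so set cannot be told apart there either. A pool holds epithelium, mesenchyme and the surrounding cells that came with the germ, and in such bulk samples fewer cells of a type and less RNA per cell cannot be told apart.

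A tooth forms from oral epithelium and the neural crest-derived mesenchyme under it. In the first branchial arch the mesenchyme near the midline, from which incisors form, and that nearer the jaw joint, from which molars form, express different homeobox and other transcription factors under the influence of BMP and FGF signals from the epithelium. *Barx1* in the molar field and *Alx* and *Hand* genes in the incisor field are the best known of these. At the cap stage the epithelium folds around the enamel knot, a signalling centre that secretes FGF, BMP, Wnt and hedgehog proteins.

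The labelled tissue was borne out by its markers. The mean level over 12 dental epithelium markers such as *Krt14* and *Cdh1* was 9.78 to 10.77 in mandibular molars, 10.39 to 10.73 in maxillary molars and 10.09 to 10.37 in incisors. Over 13 dental mesenchyme markers such as *Msx1* and *Pax9* it was 10.12 to 10.56, 10.50 to 10.61 and 9.96 to 10.15 in the same order. Mandibular molar 2 stood apart, with the lowest epithelial and the highest muscle marker level of the molars. Sample medians lay between 6.80 and 6.99, and between 76.1% and 79.2% of probe sets were above a log2 signal of 5. The samples fell into 2 sets by their values, a division not found in the labels. Samples 5 to 8 of the mandibular molars correlated more closely with maxillary molars (median r = 0.9942 over all probe sets) than with mandibular molars 1 to 4 (median r = 0.9898). With the incisors the median r was 0.9902 for mandibular molars 1 to 4, 0.9861 for mandibular molars 5 to 8 and 0.9848 for maxillary molars. The ranges for the 2 mandibular groups overlapped (0.9824 to 0.993 and 0.9831 to 0.991). The incisors were therefore placed in a set with mandibular molars 1 to 4 only, an inference from these values. The study describes 1 incisor sample as discarded for a washing problem without naming it, and all 4 labelled incisors were used here.

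As many genes were higher in molars as were lower at this threshold. Of 17328 genes tested, 87 were higher in molars (0.502%) and 87 were lower (0.502%). At a fold above 1.2, 1588 genes were higher (9.16%) and 918 lower (5.3%), and the median difference over all genes was -0.006. Mandibular molars taken alone had 74 genes above incisors (0.428% of 17309) and 59 below (0.341%), and maxillary molars had 168 above (0.975% of 17237) and 150 below (0.87%). At a fold above 1.2 these shares were 3.91% above and 3.09% below in mandibular molars and 16.4% above and 12.3% below in maxillary molars. All 87 higher and all 87 lower tooth-class genes had the same sign in both separate comparisons. The pooled difference is a weighted mean of the 2 separate ones. Since genes were chosen for its size, this agreement is largely set by the choice. Of the tooth-class genes outside the program, 11 higher and 2 lower genes passed fold 2 only in mandibular molars, while 19 higher and 33 lower genes passed it only in maxillary molars. The threshold did not fall in a gap. *Man1a* was just inside with differences of 1.01 and 1.36 in mandibular and maxillary molars, and *Pid1* was just outside with 1.00 and 1.17. Among lower genes *Adamts5* was just inside with -1.01 and -1.28. The levels of the 12 molars and the 4 incisors did not overlap for 54 of the 57 higher and 47 of the 52 lower genes. Over all genes tested, 420 (2.42%) had every molar above every incisor and 383 (2.21%) every molar below, and since the thresholds chose the program these shares are given as background only.

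**Figure D1:**
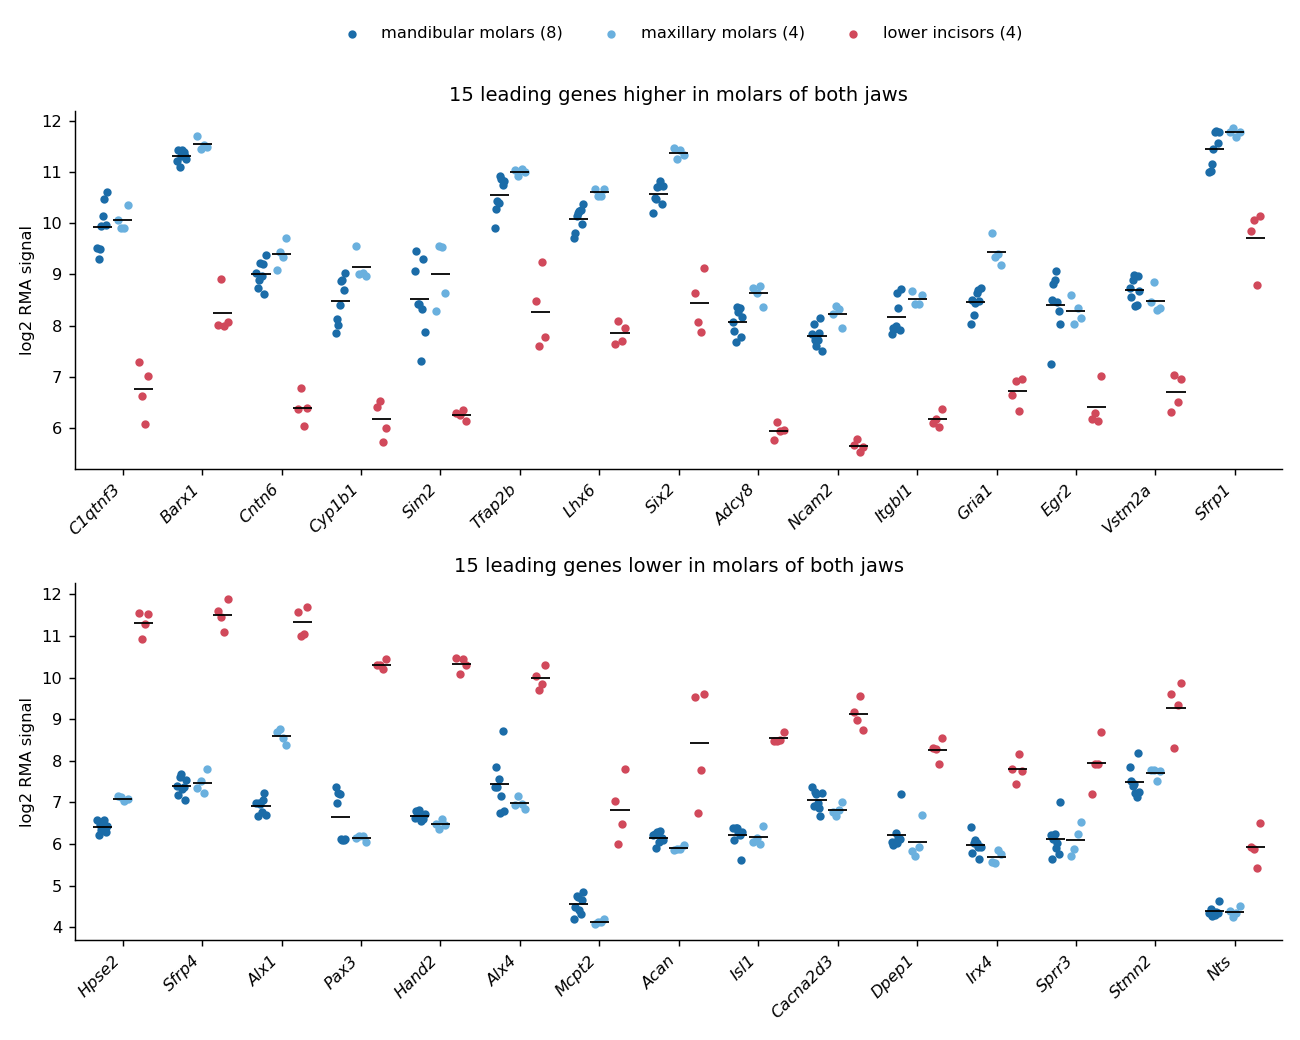
Log2 RMA signal of the 15 leading genes in each direction, those of largest difference among program genes whose molars and incisors do not overlap, with 1 point per sample for 8 mandibular molars (dark blue), 4 maxillary molars (light blue) and 4 lower incisors (red) and a bar at each group mean. The choice of genes fixes the gap between molars and incisors in both panels. *Alx1* in maxillary molars (8.38 to 8.76) lies between mandibular molars and incisors.

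Transcription factors of the molar field were mostly higher in molars. Of 15 measured factors of the molar (proximal) field, 14 were higher in molars at a fold above 1.2 and none was lower, with a median difference of 1.53, against 9.16% of all genes and a median of -0.006. This list was drawn up with the study known and is not independent evidence of its direction. *Barx1*, the homeobox gene best known as a mark of the molar field, read 11.10 to 11.44 (median 11.31) in mandibular molars, 11.70, 11.44, 11.53 and 11.49 in maxillary molars and 8.01, 8.91, 7.99 and 8.08 in incisors. Incisor 2 was the highest of its group and still lay more than 2 units below the lowest molar. The mean was 11.38 ± 0.16 in molars and 8.25 ± 0.44 in incisors (SD, n = 12 and 4), or 8.8-fold higher in molars, a difference of 3.14 (SE 0.14, adjusted p = 2.2e-10). *Lhx6*, a LIM homeobox gene of the oral side of the first arch, read 9.72 to 10.38 (median 10.17) in mandibular molars, 10.68, 10.53, 10.53 and 10.67 in maxillary molars and 7.65, 8.10, 7.70 and 7.96 in incisors. Its levels were tight within each group, maxillary molars were uppermost, and the difference was 2.41 (SE 0.16, adjusted p = 5.85e-08). *Six2*, a homeobox gene that keeps progenitors undifferentiated in the kidney, read 10.19 to 10.83 (median 10.60) in mandibular molars, 11.46, 11.26, 11.44 and 11.34 in maxillary molars and 8.65, 8.08, 7.88 and 9.13 in incisors. Again the maxillary molars formed the top group, and incisor 4 was closest to the molars (difference 2.40, SE 0.25, adjusted p = 1.21e-05).

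*Tfap2b*, an AP-2 family factor of the neural crest, read 9.90 to 10.92 (median 10.59) in mandibular molars, 11.03, 10.92, 11.05 and 11.00 in maxillary molars and 8.49, 7.60, 9.23 and 7.78 in incisors. Its incisor values spread over more than 1.5 units and incisor 3 came closest to the molars (difference 2.42, SE 0.25, adjusted p = 1.21e-05). *Sim2*, a bHLH-PAS factor, read 7.30 to 9.46 (median 8.42) in mandibular molars, 8.29, 9.56, 9.53 and 8.63 in maxillary molars and 6.29, 6.25, 6.34 and 6.14 in incisors. Here the incisors were uniform and the molars were spread, and no molar reached the incisor range (difference 2.43, SE 0.34, adjusted p = 0.000231). *Shox2*, a short-stature homeobox gene of palate and limb, differed by 1.72 (SE 0.07, adjusted p = 1.67e-10), and by 1.71 in mandibular and 1.74 in maxillary molars. The COUP nuclear receptor genes *Nr2f1* and *Nr2f2* differed by 1.69 and 1.26. *Dlx1*, which together with *Dlx2* is needed for the upper molars in mice, read 9.82 to 10.41 (median 10.00) in the 12 molars and 8.31, 8.64, 8.43 and 8.84 in the incisors, a difference of 1.53 (SE 0.11, adjusted p = 2.05e-07). *Dlx2* itself was less distinct, with 10.20 to 11.29 (median 10.99) in the 12 molars and 10.15, 9.73, 10.15 and 10.56 in the incisors and a difference of 0.77 (SE 0.19, adjusted p = 0.0171), and its groups overlapped. *Sox2*, a stem cell factor also known from dental epithelium, differed by 1.47 (SE 0.13, adjusted p = 2.75e-06). *Pax9*, a paired-box gene needed for teeth to pass the bud stage, read 10.70 to 10.96 (median 10.87) in mandibular molars, 10.41, 10.39, 10.52 and 10.54 in maxillary molars and 9.64, 9.82, 9.25 and 10.08 in incisors, below fold 2 in maxillary molars and so outside the program (difference 1.01, SE 0.13, adjusted p = 0.000121). The exception on the list was *Pitx1*, the hindlimb and mandibular homeobox gene. It read 10.65 to 11.33 (median 10.94) in mandibular molars, 9.79, 9.96, 10.14 and 10.22 in maxillary molars and 10.08, 10.68, 10.41 and 10.57 in incisors, so that mandibular molars lay above the incisors (difference 0.53) and maxillary molars below them (-0.41). Its maxillary difference was 0.011 with the sample set as a block (adjusted p = 0.993). Of the 15 factors 12 were higher with the sample set as a block, and 12 were higher when mandibular molars 1 to 4 alone were set against the incisors of their set. In this contrast the block fit gives the 2 jaws equal weight, while the main contrast pools all molars.

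The incisor side had its own set of factors, and 6 of them were among its 15 leading genes. Of 13 measured factors of the incisor (distal) field, 10 were lower in molars and none was higher, with a median difference of -1.35 against 5.3% of all genes lower, and this list too was drawn up with the study known. *Hand2*, a bHLH factor of the distal lower arch, read 6.54 to 6.83 (median 6.65) in mandibular molars, 6.49, 6.36, 6.59 and 6.47 in maxillary molars and 10.47, 10.09, 10.44 and 10.30 in incisors. Molars of both jaws formed 1 narrow band more than 3 units below the incisors (difference -3.72, SE 0.08, adjusted p = 2.37e-14). The mean was 6.61 ± 0.14 in molars and 10.33 ± 0.17 in incisors (SD, n = 12 and 4), 13.2-fold lower in molars. *Alx4*, an aristaless-like homeobox gene of the midface, read 6.75 to 8.71 (median 7.38) in mandibular molars, 6.94, 7.15, 6.97 and 6.85 in maxillary molars and 10.04, 9.71, 9.85 and 10.31 in incisors. Mandibular molar 7 reached 8.71, well above the other molars and below all incisors (difference -2.69, SE 0.27, adjusted p = 8.61e-06). *Pax3*, a paired-box gene of neural crest and muscle progenitors, read 6.10 to 7.36 (median 6.56) in mandibular molars, 6.15, 6.18, 6.20 and 6.06 in maxillary molars and 10.30, 10.29, 10.21 and 10.45 in incisors. Mandibular molars 1 to 4 lay between 7.00 and 7.36 and all other molars near 6.1, so the molar values followed the sample set, while the distance to the incisors was -3.83 (SE 0.25, adjusted p = 5.84e-08) over all molars and -3.12 within the first set (adjusted p = 2.23e-06).

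*Isl1*, a LIM homeobox gene known in incisor epithelium, read 5.62 to 6.39 (median 6.29) in mandibular molars, 6.05, 6.14, 6.00 and 6.44 in maxillary molars and 8.47, 8.48, 8.51 and 8.68 in incisors. The incisors were within 0.3 units of each other and the molars at least 2 units lower (difference -2.35, SE 0.12, adjusted p = 1.37e-09). *Irx4*, an Iroquois gene known best from heart ventricle, differed by -1.91 (SE 0.14, adjusted p = 1.8e-07), *Tlx1*, the homeobox gene needed for the spleen, by -1.35 (SE 0.08, adjusted p = 2.42e-08), and *Otx1*, an orthodenticle gene, by -1.19 (SE 0.14, adjusted p = 4.88e-05). *Hand1* differed by -1.16 (SE 0.12, adjusted p = 8.61e-06). *Emx2*, a homeobox gene of cortex and urogenital tract that was not on the list, read 5.25 to 7.43 (median 5.66) in mandibular molars, 4.93, 4.87, 5.32 and 5.46 in maxillary molars and 7.80, 6.83, 8.51 and 8.31 in incisors. Incisor 2, the lowest incisor, was below mandibular molar 7, which was the highest molar as for *Alx4*, and the other samples did not overlap. Its difference was -2.26 (SE 0.36, adjusted p = 0.000846). *Msx1* and *Msx2*, which were also on the incisor field list, differed by 0.28 (adjusted p = 0.138) and -0.55 (adjusted p = 0.186), and neither passed. Taken alone, mandibular molars had 9 factors of the list lower and none higher, and maxillary molars had 10 lower and 1 higher.

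Promoter sequences are shown for 4 of these factors, *Barx1* and *Lhx6* from the molar side and *Hand2* and *Isl1* from the incisor side, since many of the factors described here bind DNA through E-boxes or homeodomain sites and the promoters show where those letters stand near the starts of such genes. They are from RefSeq, build GRCm38.p6, from 250 bases before to 50 bases after the start of the gene, 5′ to 3′ on the strand of the gene, with capitals marking CANNTG (the E-box, bound by bHLH proteins) or TAATTA (a core bound by many homeodomain proteins). Both motifs read the same on both strands, and their letters do not allow them to overlap.
Barx1 (chr13:48662786-48663085, plus strand): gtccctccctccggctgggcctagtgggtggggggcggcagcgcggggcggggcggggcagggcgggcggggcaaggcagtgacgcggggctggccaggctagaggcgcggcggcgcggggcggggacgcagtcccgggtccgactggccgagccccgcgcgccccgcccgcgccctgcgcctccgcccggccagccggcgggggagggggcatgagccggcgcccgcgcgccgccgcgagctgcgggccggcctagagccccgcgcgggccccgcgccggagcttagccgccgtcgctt
Lhx6 (chr2:36105359-36105658, minus strand): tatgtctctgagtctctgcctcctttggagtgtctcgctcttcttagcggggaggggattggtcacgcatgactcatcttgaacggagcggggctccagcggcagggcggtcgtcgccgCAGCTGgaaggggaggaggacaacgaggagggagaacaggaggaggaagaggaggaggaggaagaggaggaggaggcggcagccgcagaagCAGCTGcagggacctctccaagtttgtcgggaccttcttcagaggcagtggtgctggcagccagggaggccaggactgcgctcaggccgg
Hand2 (chr8:57320733-57321032, plus strand): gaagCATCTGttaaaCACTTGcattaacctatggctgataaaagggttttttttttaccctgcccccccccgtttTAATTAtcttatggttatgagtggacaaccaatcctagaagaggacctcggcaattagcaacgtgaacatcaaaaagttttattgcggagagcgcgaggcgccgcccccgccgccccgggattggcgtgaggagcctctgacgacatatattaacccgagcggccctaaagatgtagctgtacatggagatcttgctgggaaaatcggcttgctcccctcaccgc
Isl1 (chr13:116309639-116309938, minus strand): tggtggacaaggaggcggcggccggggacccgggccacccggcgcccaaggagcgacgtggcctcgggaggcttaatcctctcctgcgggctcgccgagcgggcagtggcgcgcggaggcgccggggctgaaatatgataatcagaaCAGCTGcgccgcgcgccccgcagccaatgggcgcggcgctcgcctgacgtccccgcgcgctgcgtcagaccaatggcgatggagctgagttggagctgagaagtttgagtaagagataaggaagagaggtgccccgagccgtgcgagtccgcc
*Barx1* had neither motif in this window, *Lhx6* had 2 E-boxes, *Hand2* had 2 E-boxes and 1 TAATTA, and *Isl1* had 1 E-box. Promoters were found for 41 of the 57 higher genes and 33 of the 52 lower genes of the program. CANNTG was present in 28 of 41 (68.3%) and 21 of 33 (63.6%), against 66.5% of the promoters of genes tested and 72.1% of all 27025 promoters. TAATTA was present in 1 of 41 (2.44%) and 4 of 33 (12.1%), against 3.14% of the promoters of genes tested and 5.31% of all promoters. A match describes letters only, and binding was not measured.

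The Wnt ligands that passed were all lower in molars, while secreted antagonists passed in both directions. None of 18 tested Wnt ligands was higher in molars and 6 were lower (median -0.19), against 9.16% and 5.3% of all genes. *Wnt5a*, a ligand of the non-canonical branch, read 9.31 to 10.18 (median 9.88) in mandibular molars, 10.15, 10.12, 10.09 and 10.32 in maxillary molars and 11.22, 11.02, 11.44 and 11.31 in incisors, and was the only ligand in the program. Its levels did not overlap between molars and incisors, and the difference was -1.32 (SE 0.14, adjusted p = 1.93e-05). *Wnt11* read 7.30 to 7.70 (median 7.49) in the 12 molars and 7.89, 8.14, 8.18 and 7.94 in the incisors, a difference of -0.54 (SE 0.08, adjusted p = 0.000277). The count of lower ligands was 2 without incisor 3 and 2 within the first set, and with the sample set as a block 1 ligand was higher and 2 were lower.

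Of 14 secreted Wnt antagonists, 6 were higher and 2 lower in molars (median 0.26), against 9.16% and 5.3% of all genes. The 2 with the largest differences pointed in opposite directions. *Sfrp1*, a secreted frizzled-related protein, read 11.01 to 11.79 (median 11.50) in mandibular molars, 11.78, 11.87, 11.69 and 11.78 in maxillary molars and 9.85, 10.07, 8.79 and 10.14 in incisors. All incisors lay below all molars, with incisor 3 lowest by more than 1 unit (difference 1.84, SE 0.22, adjusted p = 4.32e-05). *Sfrp4*, of the same family, read 7.05 to 7.69 (median 7.38) in mandibular molars, 7.36, 7.52, 7.22 and 7.80 in maxillary molars and 11.60, 11.46, 11.10 and 11.88 in incisors. Molars of both jaws were alike and the incisors more than 3 units above them, and the level was 17.1-fold lower in molars (difference -4.09, SE 0.13, adjusted p = 6.94e-12). *Sfrp2* was near the top of the signal scale and still separate, at 12.27 to 12.50 (median 12.39) in the 12 molars and 11.38, 11.54, 11.31 and 11.66 in the incisors (difference 0.92, SE 0.06, adjusted p = 4.33e-08). *Frzb*, another member, read 10.54 to 11.69 (median 11.34) in the 12 molars and 10.49, 10.18, 9.57 and 10.70 in the incisors, with overlapping groups and a difference of 1.01 (SE 0.21, adjusted p = 0.00766). *Wif1*, an inhibitor that binds Wnt proteins, was lower in molars (difference -0.64, SE 0.14, adjusted p = 0.0117). Within the first set 2 antagonists were higher and 2 lower, and with the sample set as a block 4 and 2, with a median of -0.04. *Epdr1*, whose gene lies next to *Sfrp4*, was lower too (difference -1.22, SE 0.15, adjusted p = 5.47e-05).

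Most BMP ligands that passed were lower in molars. Of 21 tested BMP, GDF and activin ligands 7 were lower in molars and 1 was higher (median -0.14), against 5.3% and 9.16% of all genes. *Bmp5*, a ligand of cartilage and craniofacial mesenchyme, read 7.22 to 7.56 (median 7.38) in mandibular molars, 7.68, 7.49, 7.18 and 7.12 in maxillary molars and 9.28, 8.59, 8.54 and 9.28 in incisors, a difference of -1.54 (SE 0.14, adjusted p = 1.84e-06) with no overlap. *Gdf10*, a BMP3-related ligand, read 9.35 to 9.89 (median 9.56) in mandibular molars, 9.05, 9.01, 8.71 and 9.05 in maxillary molars and 10.41, 10.62, 10.36 and 10.58 in incisors. It did not overlap between classes and was lower in maxillary than in mandibular molars (difference -1.11, SE 0.18, adjusted p = 0.000938). *Gdf6* read 5.93 to 6.46 (median 6.15) in the 12 molars and 7.06, 6.71, 6.96 and 7.07 in the incisors and differed by -0.76 (SE 0.11, adjusted p = 0.000334). *Inhba*, the activin A subunit made by tooth mesenchyme, was the only member higher in molars (difference 0.79, SE 0.28, adjusted p = 0.0797). It did not pass with the sample set as a block, nor in 11 of the 16 settings that left out 1 sample. The count of lower ligands was 4 without incisor 1, against incisors 2 and 3 alone, and within the first set.

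Among 15 BMP antagonists and modulators 4 were higher and 3 lower in molars (median -0.02), against 9.16% and 5.3% of all genes. *Bmper*, a BMP-binding protein, read 8.27 to 9.33 (median 8.78) in mandibular molars, 9.70, 9.35, 9.50 and 9.34 in maxillary molars and 7.49, 7.17, 7.18 and 7.41 in incisors, a difference of 1.69 (SE 0.21, adjusted p = 8.48e-05). *Smoc2*, a matricellular modulator, read 9.95 to 10.43 (median 10.23) in mandibular molars, 9.64, 10.00, 9.84 and 10.24 in maxillary molars and 8.66, 8.92, 8.56 and 8.77 in incisors, and mandibular molars were slightly the higher of the molars (difference 1.40, SE 0.12, adjusted p = 1.47e-06). Its relative *Smoc1* went the other way, by -0.88 (SE 0.15, adjusted p = 0.00173). *Chrdl1*, a chordin-like antagonist, read 7.62 to 8.46 (median 8.14) in mandibular molars, 9.21, 9.18, 9.26 and 9.31 in maxillary molars and 7.52, 7.21, 7.08 and 7.78 in incisors. Here only the maxillary molars were clear of the incisors, the mandibular ones overlapping them, and the separate differences were 0.68 in mandibular and 1.84 in maxillary molars. *Nbl1*, a DAN family antagonist, was lower in molars (difference -0.96, SE 0.18, adjusted p = 0.00278).

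*Fgf20* and *Fgf4*, FGF ligands of the enamel knot, were higher in molars, and most other signals of the knot did not pass. Of 17 enamel knot genes 4 were higher and none lower (median 0.15), against 9.16% and 5.3% of all genes. *Fgf20* read 7.59 to 8.46 (median 8.09) in mandibular molars, 8.05, 7.83, 7.94 and 7.68 in maxillary molars and 6.90, 6.81, 7.14 and 7.19 in incisors, with no overlap and a difference of 1.01 (SE 0.14, adjusted p = 0.000167). *Fgf4* read 7.21 to 8.71 (median 8.03) in mandibular molars, 8.10, 7.72, 7.94 and 7.49 in maxillary molars and 7.23, 6.97, 6.97 and 7.11 in incisors, and overlapped the incisors in 1 mandibular molar (difference 0.89, SE 0.19, adjusted p = 0.00698). *Shh*, the hedgehog ligand of the knot, differed by 0.26 (adjusted p = 0.551). With the sample set as a block 1 enamel knot gene was higher and 1 lower, with a median of -0.095, and within the first set 1 was higher and none lower. Without mandibular molar 1 there was 1 lower gene, and *Fgf4* did not pass with the block (difference 0.70, adjusted p = 0.212). Of 22 FGF ligands and receptors 3 were higher and 1 lower, a share close to the background, and within the first set 1 was higher and none lower. The lower count was 0 without incisor 3 and 3 without mandibular molar 2. Of 12 ERK feedback genes, which FGF signalling induces, 4 were higher and none lower (median 0.23), against the same shares of all genes. *Dusp6*, the phosphatase that switches ERK off, read 10.47 to 11.44 (median 11.07) in mandibular molars, 11.32, 11.03, 11.26 and 11.00 in maxillary molars and 9.92, 9.81, 9.69 and 10.06 in incisors, a difference of 1.19 (SE 0.15, adjusted p = 8.48e-05). *Etv4* differed by 0.67 (SE 0.16, adjusted p = 0.0171) and *Spry1* by 0.45 (SE 0.10, adjusted p = 0.0105). Of the 12, 2 were higher with the sample set as a block. *Egr2*, an immediate early factor that growth factor signals induce, read 7.25 to 9.06 (median 8.48) in mandibular molars, 8.60, 8.03, 8.35 and 8.15 in maxillary molars and 6.18, 6.29, 6.14 and 7.01 in incisors. Mandibular molar 1 was the lowest molar by far and still above the incisors (difference 1.96, SE 0.25, adjusted p = 9.92e-05).

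Retinoid genes moved in both directions, 3 of 20 higher and 4 lower, against 9.16% and 5.3% of all genes. The lower count was 2 without incisor 2 and 1 against incisors 2 and 3 alone. *Cyp1b1*, a cytochrome that can oxidise retinol among other substrates, read 7.86 to 9.03 (median 8.55) in mandibular molars, 9.55, 9.01, 9.03 and 8.97 in maxillary molars and 6.41, 6.53, 5.73 and 6.01 in incisors. Maxillary molar 1 stood highest, and all incisors were at least 1.3 units below the lowest molar (difference 2.54, SE 0.25, adjusted p = 8.61e-06). *Aldh1a2*, which makes retinoic acid from retinaldehyde, read 8.70 to 9.53 (median 9.26) in mandibular molars, 10.55, 9.92, 9.87 and 9.69 in maxillary molars and 8.04, 8.29, 7.58 and 8.41 in incisors, a difference of 1.39 (SE 0.25, adjusted p = 0.00238). On the other side *Crabp1*, a retinoic acid binding protein, read 10.93 to 11.68 (median 11.36) in the 12 molars and 12.32, 12.26, 12.31 and 12.49 in the incisors and differed by -1.03 (SE 0.12, adjusted p = 4.86e-05). *Rxrg*, a retinoid X receptor, differed by -1.10 (SE 0.29, adjusted p = 0.0276), by -0.77 in mandibular and -1.77 in maxillary molars. Of 19 Notch pathway genes 1 was higher and 3 lower, against the same shares of all genes. The higher count was 0 with the sample set as a block and within the first set, and the lower count was 1 within the first set and 1 without incisor 3. *Hey2*, a Notch target, read 7.05 to 7.90 (median 7.79) in mandibular molars, 8.27, 8.15, 8.23 and 7.85 in maxillary molars and 9.15, 8.39, 9.35 and 9.03 in incisors, a difference of -1.16 (SE 0.19, adjusted p = 0.00104). Of 15 hedgehog genes none was higher and 2 were lower, *Gas1* (difference -0.38, SE 0.12, adjusted p = 0.0583) and *Cdon* (difference -0.64, SE 0.25, adjusted p = 0.0993), both co-receptors for hedgehog proteins. The lower count was 0 without incisor 2, 0 without incisor 3, and 1 in 10 other settings that left out 1 sample and with values under 5 raised to 5.

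**Figure D2:**
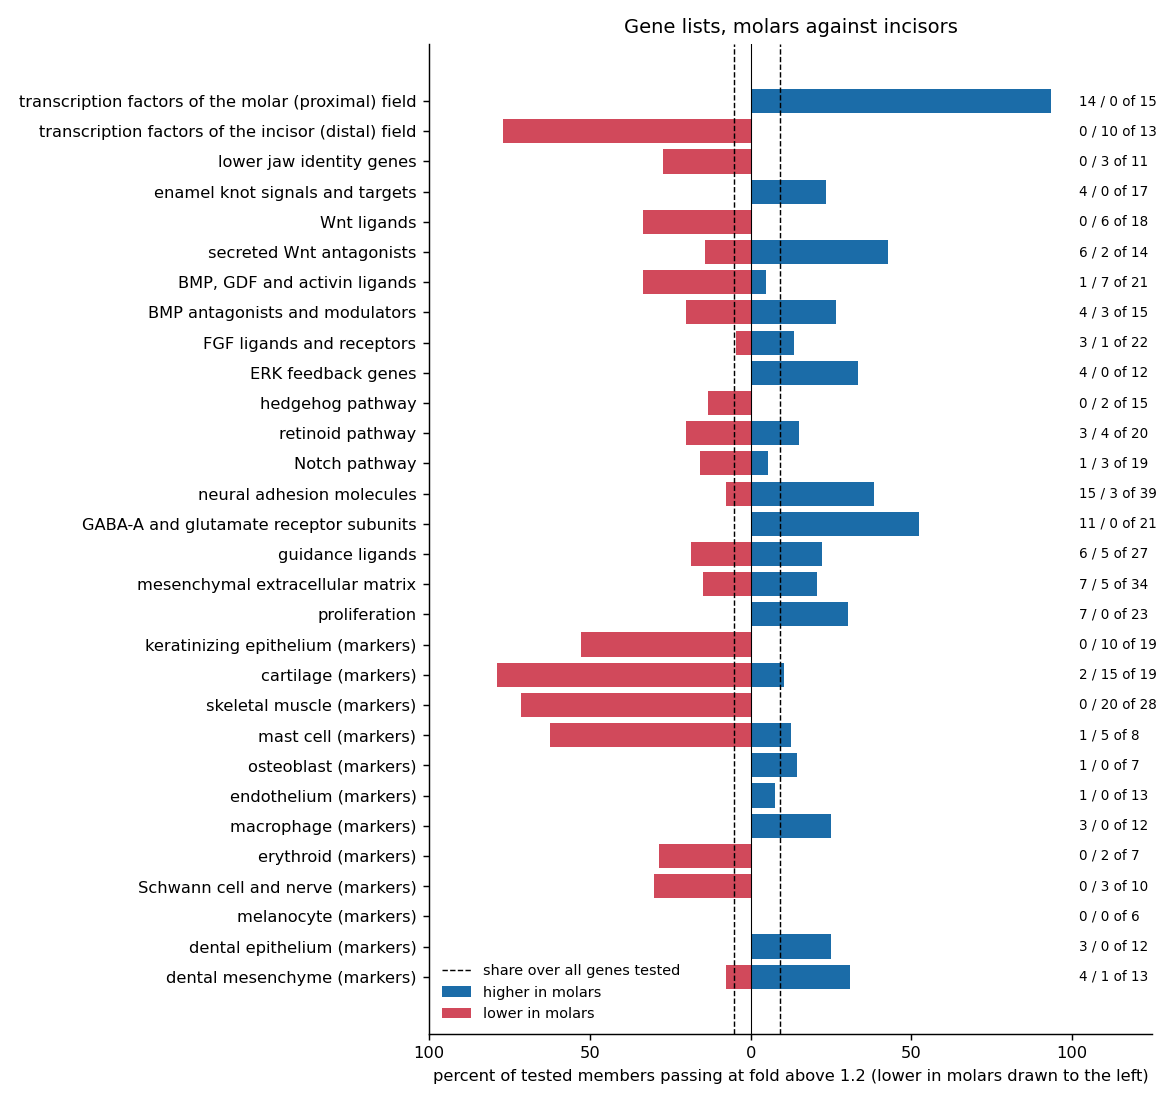
Percent of the tested members of each gene or marker list that passed at a fold above 1.2, higher in molars to the right and lower in molars to the left, with the counts (higher, lower, tested) at the right edge. Dashed lines mark the shares over all genes tested (9.16% and 5.3%). Molar field factors (14 of 15) and glutamate and GABA-A receptor subunits (11 of 21) reach farthest right, and cartilage markers (15 of 19) and incisor field factors (10 of 13) farthest left.

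Cell adhesion molecules best known from neurons formed another group on the molar side. Of 39 tested neural adhesion molecules 15 were higher and 3 lower in molars (median 0.10), against 9.16% and 5.3% of all genes. Of the 39, 11 were in the program. *Cntn6*, a contactin that mediates contact between neurons, read 8.62 to 9.38 (median 8.99) in mandibular molars, 9.09, 9.44, 9.35 and 9.70 in maxillary molars and 6.36, 6.78, 6.03 and 6.40 in incisors. The groups were more than 1.8 units apart, 6.68-fold higher in molars (difference 2.74, SE 0.17, adjusted p = 2.42e-08). *Ncam2*, a homophilic adhesion molecule of olfactory axons, read 7.5 to 8.14 (median 7.79) in mandibular molars, 8.23, 8.38, 8.33 and 7.96 in maxillary molars and 5.67, 5.79, 5.53 and 5.64 in incisors, a difference of 2.29 (SE 0.14, adjusted p = 2.42e-08). *Nptx1*, a neuronal pentraxin that clusters glutamate receptors, differed by 1.75 (SE 0.23, adjusted p = 0.000153). *Tenm1*, a teneurin, read 7.58 to 7.94 (median 7.75) in mandibular molars, 7.34, 7.40, 7.23 and 7.38 in maxillary molars and 5.68, 6.17, 5.84 and 5.94 in incisors. It was higher in both molar groups, mandibular ones uppermost, with differences of 1.84 in mandibular and 1.43 in maxillary molars. *Nlgn1*, *Clstn2*, *Cntn4*, *Nxph1*, *Lrrtm1* and *Cntn3*, all synaptic or axonal cell surface or secreted proteins, differed by between 1.22 and 1.52. The lower members were *Slitrk6* (difference -0.88, SE 0.21, adjusted p = 0.0182), *Nrxn3* (difference -0.63, SE 0.12, adjusted p = 0.00281) and *Lrrtm3* (difference -0.62, SE 0.24, adjusted p = 0.0965). The counts were 13 higher and 2 lower with the sample set as a block, and 12 and 2 within the first set. Between molars 2 of the 39 were higher and 8 lower in mandibular samples, against 1.4% and 1.59% of all genes.

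Subunits of ionotropic receptors moved with them. Of 21 tested GABA-A and glutamate receptor subunits 11 were higher in molars and none lower (median 0.70), against 9.16% and 5.3% of all genes. *Gria1*, a subunit of AMPA-type glutamate receptors, read 8.03 to 8.73 (median 8.50) in mandibular molars, 9.80, 9.34, 9.40 and 9.18 in maxillary molars and 6.64, 6.92, 6.34 and 6.96 in incisors, a difference of 2.07 (SE 0.26, adjusted p = 8.59e-05). The other AMPA subunits *Gria2*, *Gria4* and *Gria3* differed by 1.29, 1.15 and 0.70. *Grin2a*, of the NMDA receptor, read 6.75 to 8.23 (median 7.16) in mandibular molars, 7.99, 7.46, 7.52 and 7.20 in maxillary molars and 5.93, 6.25, 6.22 and 5.69 in incisors. No molar reached the incisor range, mandibular molar 7 was highest, and the difference was 1.35 (SE 0.22, adjusted p = 0.000841). *Gabra2*, of the GABA-A receptor, was near the low end of the scale at 6.01 to 7.15 (median 6.42) in the 12 molars and 5.59, 5.49, 5.24 and 5.49 in the incisors, a difference of 1.03 (SE 0.16, adjusted p = 0.000629). With the sample set as a block 10 were higher, with a median of 0.39, and 7 were higher within the first set. Between molars none of the 21 was higher and 8 were lower in mandibular samples, against 1.4% and 1.59% of all genes. Of 10 tested Schwann cell and nerve markers none was higher in molars and 3 were lower, against the same shares of all genes. Within the first set 2 of these markers were higher and 1 lower. Their mean level was 6.78 to 7.25 in mandibular molars, 6.63 to 6.80 in maxillary molars and 7.09 to 7.25 in incisors. *Stmn2*, a microtubule regulator of growing neurons, was in the program on the incisor side. It read 7.14 to 8.19 (median 7.42) in mandibular molars, 7.79, 7.78, 7.53 and 7.75 in maxillary molars and 9.59, 8.31, 9.34 and 9.87 in incisors, a difference of -1.71 (SE 0.22, adjusted p = 0.000121).

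Receptors and ligands of axon guidance were found on both sides. Netrin receptors went opposite ways, *Dcc* higher in molars (difference 1.28, SE 0.14, adjusted p = 2.98e-05) and *Unc5c* lower (difference -1.43, SE 0.09, adjusted p = 5.4e-08). Of 27 guidance ligands 6 were higher and 5 lower in molars, against 9.16% and 5.3% of all genes. *Slit2*, a repellent ligand, read 10.51 to 10.98 (median 10.86) in the 12 molars and 10.28, 10.30, 9.83 and 10.11 in the incisors, a difference of 0.68 (SE 0.09, adjusted p = 0.000201). *Reln*, the secreted reelin protein, read 7.24 to 7.73 (median 7.53) in the 12 molars and 8.42, 8.27, 8.28 and 8.49 in the incisors, a difference of -0.85 (SE 0.09, adjusted p = 8.61e-06). *Sema3c*, a secreted semaphorin, differed by -0.73 (SE 0.17, adjusted p = 0.0148). *Cacna2d3*, an auxiliary calcium channel subunit, read 6.66 to 7.36 (median 7.09) in mandibular molars, 6.77, 6.68, 6.83 and 7.00 in maxillary molars and 9.18, 8.98, 9.57 and 8.74 in incisors, and all molars were at least 1.3 units below all incisors (difference -2.14, SE 0.14, adjusted p = 5.85e-08). *Cacna1d*, a pore-forming subunit of such a channel whose gene lies 317 kb away, differed by -1.46 (SE 0.07, adjusted p = 5.04e-10).

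Secreted and matrix proteins supplied the leading gene in each direction. *C1qtnf3*, a secreted C1q and TNF-related protein, read 9.31 to 10.61 (median 9.96) in mandibular molars, 10.07, 9.91, 9.90 and 10.35 in maxillary molars and 7.30, 6.63, 6.08 and 7.02 in incisors. Mandibular molars 5 to 8 were above mandibular molars 1 to 4 on average (means 10.30 and 9.57), and every molar was 2 or more units above every incisor. It was 9.31-fold higher in molars (difference 3.22, SE 0.23, adjusted p = 1.46e-07). *Hpse2*, a heparanase-like protein that binds heparan sulfate, read 6.22 to 6.58 (median 6.39) in mandibular molars, 7.14, 7.12, 7.03 and 7.08 in maxillary molars and 11.55, 10.92, 11.28 and 11.52 in incisors. Both molar groups were tight, maxillary molars about 0.7 units above mandibular ones, and the incisors more than 3 units higher again. Its level was 25.8-fold lower in molars (difference -4.69, SE 0.18, adjusted p = 7.44e-11), the largest of the program. *Cnnm1*, a gene 50.6 kb from *Hpse2*, differed by -1.39 (SE 0.13, adjusted p = 3.32e-06).

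Of 34 mesenchymal matrix genes 7 were higher and 5 lower in molars (median 0.01), against 9.16% and 5.3% of all genes. *Itgbl1*, an integrin beta-like protein, read 7.84 to 8.71 (median 7.98) in mandibular molars, 8.67, 8.42, 8.42 and 8.60 in maxillary molars and 6.10, 6.18, 6.02 and 6.38 in incisors, a difference of 2.12 (SE 0.17, adjusted p = 3.86e-07). *Has2*, which makes hyaluronan, read 10.16 to 10.50 (median 10.28) in mandibular molars, 10.31, 10.33, 10.37 and 10.46 in maxillary molars and 8.84, 8.59, 8.39 and 9.01 in incisors, a difference of 1.62 (SE 0.09, adjusted p = 9.53e-09). Both were separate in every sample. The small leucine-rich proteoglycans *Kera* and *Fmod* were higher by 1.05 (SE 0.26, adjusted p = 0.0178) and 0.77 (SE 0.15, adjusted p = 0.00471), both with overlapping samples. *Adcy8*, a calcium-stimulated adenylyl cyclase, read 7.69 to 8.36 (median 8.12) in mandibular molars, 8.74, 8.64, 8.78 and 8.37 in maxillary molars and 5.77, 6.11, 5.94 and 5.97 in incisors, a difference of 2.31 (SE 0.17, adjusted p = 2.76e-07). *Vstm2a*, a secreted immunoglobulin domain protein, was at 8.38 to 8.99 (median 8.71) in mandibular molars, 8.46, 8.85, 8.30 and 8.35 in maxillary molars and 6.32, 7.03, 6.51 and 6.96 in incisors, a difference of 1.93 (SE 0.15, adjusted p = 3.64e-07) that was nearly the same in both jaws. *Phex*, an endopeptidase of osteoblasts and odontoblasts, differed by 1.32 (SE 0.16, adjusted p = 7.45e-05) and was the only 1 of 7 osteoblast markers that passed.

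Some further genes of the incisor side code for peptides or enzymes that act on them. *Nts*, the neurotensin precursor, read 4.27 to 4.63 (median 4.36) in mandibular molars, 4.38, 4.25, 4.34 and 4.50 in maxillary molars and 5.92, 5.88, 5.43 and 6.51 in incisors. All molars were below the filter level of 5, where values have no reliable order, so the difference as deposited, -1.56 (SE 0.12, adjusted p = 4.29e-07), is not a measured size. With values under 5 raised to 5 it was -0.935, under fold 2, and *Nts* was then outside the program. *Sst*, somatostatin, differed by -1.32 (SE 0.15, adjusted p = 2.5e-05). *Dpep1*, a membrane dipeptidase, read 5.98 to 7.20 (median 6.08) in mandibular molars, 5.82, 5.72, 5.92 and 6.70 in maxillary molars and 8.31, 8.29, 7.91 and 8.56 in incisors. Mandibular molar 8 and maxillary molar 4 were the highest molars (difference -2.11, SE 0.20, adjusted p = 6.15e-06). *Cxcl14*, a chemokine of epithelia, was lower in molars, unlike the chemokine *Cxcl5* (difference 1.54), and differed by -1.53 (SE 0.23, adjusted p = 0.000453) over all molars but by -1.07 within the first set (adjusted p = 0.103).

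**Figure D3:**
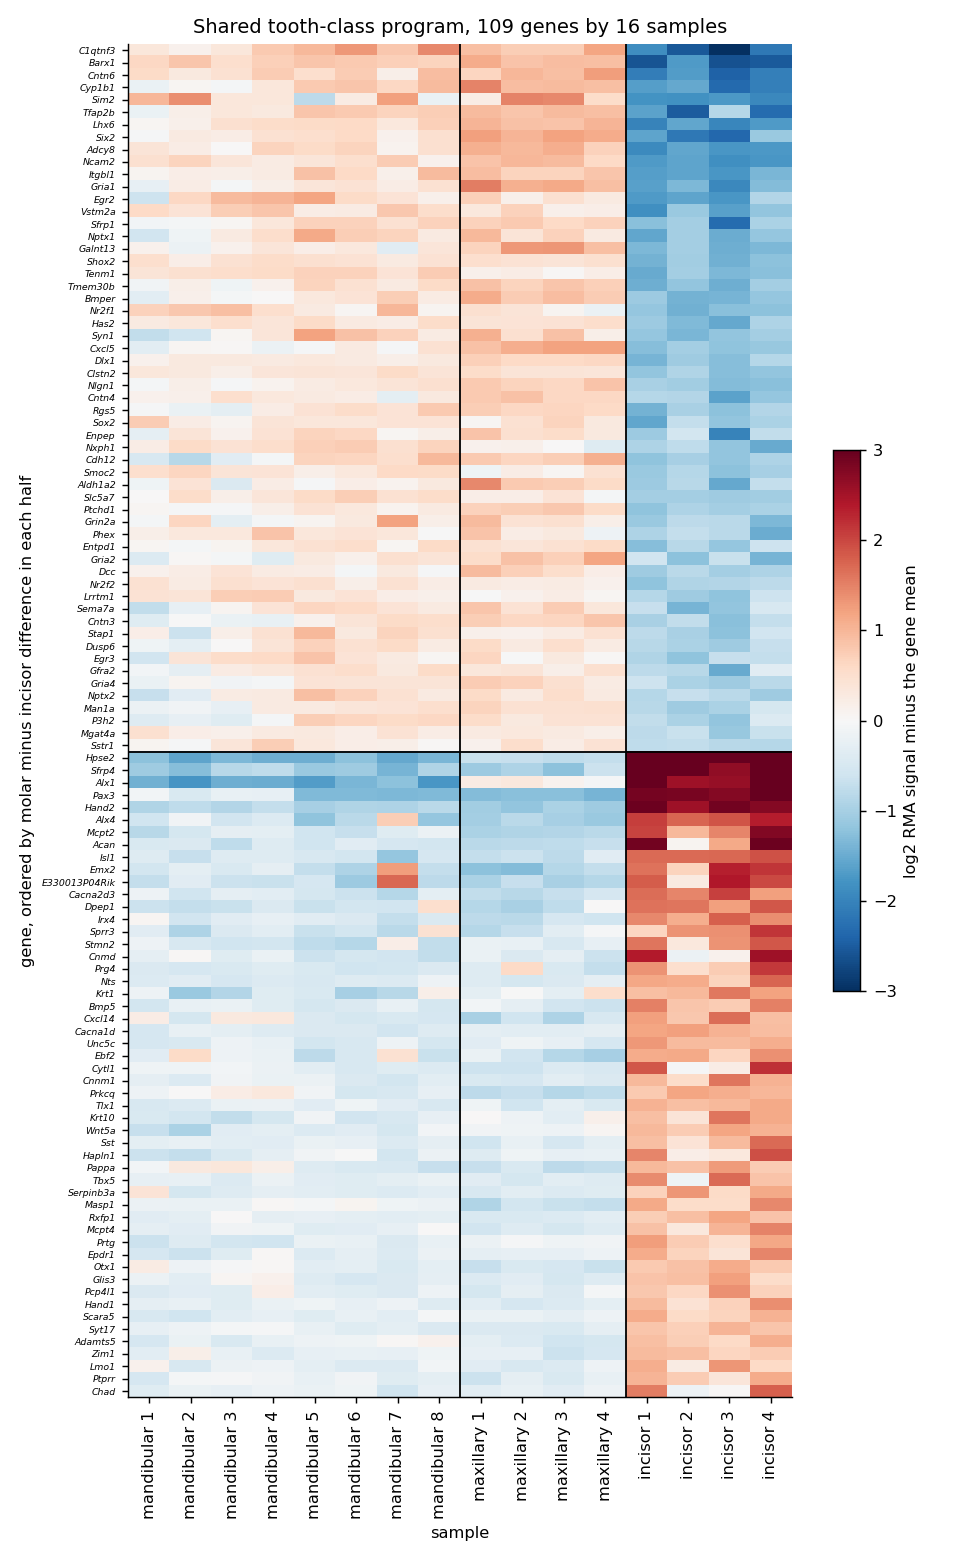
Log2 RMA signal minus the gene's mean over the 16 samples for the 109 genes of the shared program (rows, ordered by the molar minus incisor difference) in 8 mandibular molars, 4 maxillary molars and 4 lower incisors, with colours clipped at -3 and 3. The 57 genes above the line are higher and the 52 below it lower in molars. *Acan*, *Cnmd*, *Hapln1* and *Chad* are higher in incisors 1 and 4 than in incisors 2 and 3, and mandibular molar 7 is high for *Alx4*, *Emx2* and *E330013P04Rik*.

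Genes of other tissues around the germ were also part of the incisor side. Of 19 tested markers of keratinizing epithelium 10 were lower in molars and none higher (median -0.47), against 5.3% and 9.16% of all genes. *Sprr3*, a cornified envelope protein, read 5.63 to 7.01 (median 6.07) in mandibular molars, 5.72, 5.88, 6.25 and 6.53 in maxillary molars and 7.20, 7.92, 7.93 and 8.70 in incisors. Mandibular molar 8 was close to incisor 1, and their groups did not overlap (difference -1.83, SE 0.24, adjusted p = 0.000121). *Krt1* and *Krt10*, the paired keratins of suprabasal epidermis, differed by -1.55 (SE 0.25, adjusted p = 0.000806) and -1.34 (SE 0.18, adjusted p = 0.000162). The basal keratins *Krt5* and *Krt14* differed by less than 0.05 in size. The mean of the list was 6.45 to 7.11 in mandibular molars, 6.56 to 6.98 in maxillary molars and 7.02 to 7.36 in incisors, with mandibular molar 8 and maxillary molar 4 highest among molars. With the sample set as a block 8 members were lower, as were 8 within the first set. The part of surface epithelium in the incisor side of the program was not tested.

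Cartilage markers divided the incisors themselves. Of 19 tested, 15 were lower in molars and 2 higher (median -0.60), against 5.3% and 9.16% of all genes. *Acan*, the aggrecan core protein, read 5.90 to 6.32 (median 6.18) in mandibular molars, 5.84, 5.88, 5.89 and 5.96 in maxillary molars and 9.54, 6.74, 7.79 and 9.61 in incisors. Incisors 1 and 4 were near 9.6 and incisors 2 and 3 more than 1.5 units lower, with incisor 2 close to the molars. The mean level of the list was 8.35, 7.41, 7.55 and 8.36 in incisors 1 to 4, while mandibular molars spanned 7.22 to 7.38 and maxillary molars 7.34 to 7.39. Against incisors 2 and 3 alone 6 markers were lower, with the sample set as a block 8, and within the first set 3. *Col2a1*, the main cartilage collagen, read 8.26 to 8.78 (median 8.46) in the 12 molars and 9.85, 8.64, 8.87 and 9.72 in the incisors, a difference of -0.79 (SE 0.17, adjusted p = 0.00887). *Sox9*, the regulator of chondrocytes that dental epithelium also expresses, did not pass (-0.06, adjusted p = 0.868). In the program 7 of the 52 lower genes (*Mcpt2*, *Acan*, *Cnmd*, *Prg4*, *Cytl1*, *Hapln1* and *Chad*) were over 1 log2 unit higher in incisors 1 and 4 than in incisors 2 and 3. Against incisors 2 and 3 alone, over all molars, all 57 higher genes passed at fold 2 and 40 of the 52 lower ones did. In both separate comparisons 53 of the 57 and 34 of the 52 did. *Cnmd*, chondromodulin, then differed by -0.38 (adjusted p = 0.134) and *Chad*, chondroadherin, by -0.21 (adjusted p = 0.162).

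Skeletal muscle markers separated the molars of the 2 jaws as well. Of 28, 20 were lower in molars and none higher (median -0.62), against 5.3% and 9.16% of all genes. None of the 28 was in the program. *Myh3*, embryonic myosin heavy chain, read 8.17 to 10.05 (median 8.70) in mandibular molars, 6.36, 6.88, 6.50 and 6.98 in maxillary molars and 9.64, 9.77, 9.67 and 9.48 in incisors. It was high in incisors, intermediate in most mandibular molars and low in maxillary molars, and mandibular molar 2 was above the incisors (difference -1.54, SE 0.55, adjusted p = 0.0776). The list mean was 6.89 to 8.00 in mandibular molars, 6.38 to 6.64 in maxillary molars and 7.73 to 7.89 in incisors. Against incisors 8 markers were lower in mandibular molars (3.09% of all genes were) and 27 in maxillary molars (12.3% of all genes were). Between molars 18 were higher in mandibular than in maxillary samples (1.4% of all genes were). The count of 20 was 9 without incisor 3, 12 with the sample set as a block and 1 within the first set.

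Of 8 tested mast cell markers 5 were lower in molars and 1 higher, against 5.3% and 9.16% of all genes. *Mcpt2*, a mast cell protease, read 4.19 to 4.84 (median 4.57) in mandibular molars, 4.08, 4.12, 4.14 and 4.20 in maxillary molars and 7.03, 6.00, 6.48 and 7.80 in incisors, so that all molars were under 5 (difference -2.42, SE 0.23, adjusted p = 5.3e-06). With values under 5 raised to 5 the difference was -1.83. *Mcpt4*, the protease gene 15.1 kb away, differed by -1.23 (SE 0.15, adjusted p = 5.14e-05). *Cpa3*, the mast cell carboxypeptidase, overlapped between groups (-0.82, adjusted p = 0.2), and *Kit*, a receptor that other cells share, was the member that was higher. The counts were 1 higher and none lower of 13 endothelial, 3 and 0 of 12 macrophage, none of 6 melanocyte and 0 and 2 of 7 erythroid markers. The shares of all genes were again 9.16% higher and 5.3% lower. With the sample set as a block or within the first set, no macrophage or erythroid marker passed. Of 23 proliferation genes 7 were higher in molars (median 0.20), against 9.16% of all genes. Without incisor 4 there were 12, and with the sample set as a block or within the first set none.

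**Figure D4:**
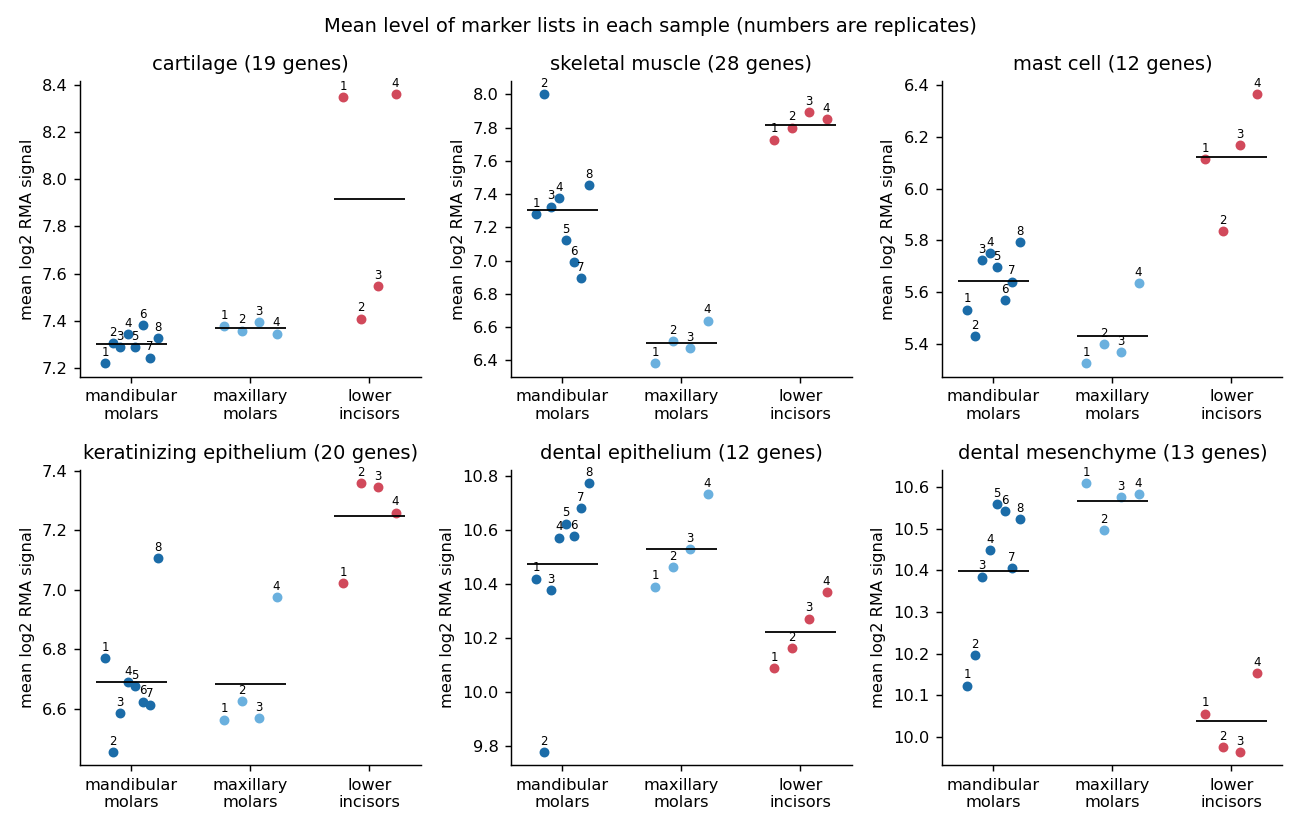
Mean log2 RMA signal of 6 marker lists in each sample, with replicate numbers beside the points and bars at group means. Cartilage markers are near 8.4 in incisors 1 and 4 and below 7.6 in all other samples, muscle markers are lowest in maxillary molars (6.38 to 6.64), and dental mesenchyme markers lie between 9.96 and 10.61 in all samples.

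Molars of the 2 jaws stood at similar but not equal distances from the incisors. For the 57 higher genes the median difference was 1.42 in mandibular and 1.74 in maxillary molars, and for the 52 lower genes -1.35 and -1.47. Maxillary molars were the farther group for 44 of the 57 and 36 of the 52. With the sample set as a block they were the farther group for 36 of the 57 and 34 of the 52. The medians with the block were 1.34 in mandibular and 1.46 in maxillary molars for the higher genes and -1.41 and -1.35 for the lower genes. The difference between the 2 distances is the difference between the molars themselves, in which the incisors cancel. Over all 17193 genes tested, 26 (0.151%) were higher and 22 (0.128%) lower in mandibular than in maxillary molars at fold 2, and 240 (1.4%) and 273 (1.59%) at a fold of 1.2. Of the 57 higher genes of the program 2 were higher and 13 lower in mandibular molars at a fold of 1.2, and of 49 lower genes tested 2 were higher and 2 lower. Only 1 gene in each direction passed at fold 2.

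These were *Cxcl5* and *Alx1*. *Cxcl5*, a chemokine that attracts neutrophils, read 5.89 to 6.65 (median 6.21) in mandibular molars, 7.08, 7.29, 7.42 and 7.40 in maxillary molars and 4.93, 5.19, 5.00 and 5.07 in incisors. All maxillary molars were above all mandibular ones, which were above all incisors, and mandibular molars were lower than maxillary ones by 1.06 (adjusted p = 0.00106). *Alx1*, an aristaless-like gene of the frontonasal mesenchyme, read 6.66 to 7.21 (median 6.97) in mandibular molars, 8.70, 8.76, 8.55 and 8.38 in maxillary molars and 11.58, 10.99, 11.05 and 11.70 in incisors. It formed 3 separate levels, lowest in mandibular molars, intermediate in maxillary molars and highest in incisors, with differences to incisors of -4.41 in mandibular and -2.73 in maxillary molars. The mandibular minus maxillary difference was -1.68 (adjusted p = 5.99e-06), and -1.66 within the second sample set, which holds both. Its relative *Alx4* showed -2.53 in mandibular and -3.0 in maxillary molars, and that step between jaws did not pass at fold 2.

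**Figure D5:**
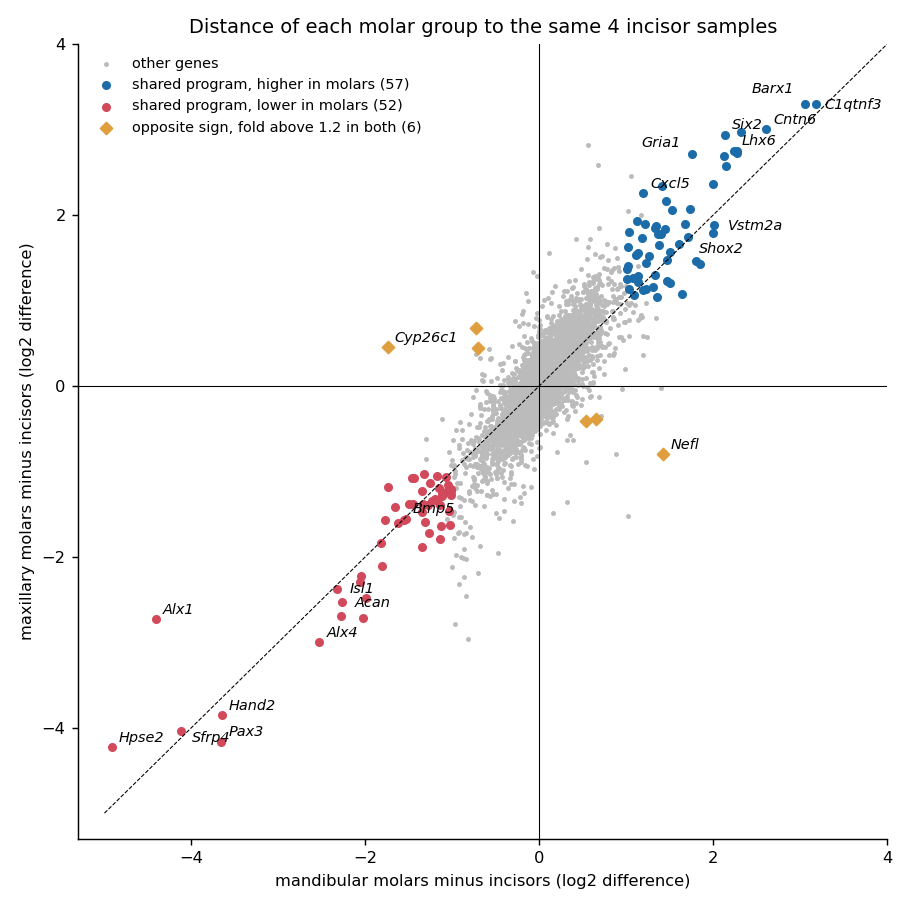
Difference of mandibular molars to incisors (horizontal) and of maxillary molars to the same 4 incisors (vertical), both in log2 units, for 17218 genes. Blue and red points are the 57 and 52 genes of the shared program, orange diamonds the 6 genes of opposite sign, and the dashed line marks equal distances. *Alx1* lies farthest off the line among the lower genes.

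Genes with opposite direction in the 2 jaws were few. At an adjusted p under 0.1 and a fold above 1.2 in both comparisons 3 genes were above incisors in mandibular molars and below them in maxillary molars, and 3 the reverse, out of 17218. *Nefl*, the light neurofilament chain of axons, read 7.86 to 9.30 (median 8.80) in mandibular molars, 6.57, 6.70, 6.17 and 6.67 in maxillary molars and 7.06, 8.14, 6.86 and 7.26 in incisors. All maxillary molars were below all incisors, and mandibular molars were above them except for incisor 2, which lay within their range (1.42 in mandibular and -0.80 in maxillary molars). *Cyp26c1*, which degrades retinoic acid, read 7.06 to 7.73 (median 7.45) in mandibular molars, 9.66, 9.38, 9.75 and 9.73 in maxillary molars and 9.11, 9.13, 8.97 and 9.49 in incisors. Its mandibular molars were all well below the incisors, and 3 of the maxillary ones were above all incisors (-1.74 in mandibular and 0.46 in maxillary molars). The others were *Pitx1* and *Clrn1* (0.65 in mandibular and -0.39 in maxillary molars), and in the reverse direction *Rtn4rl1* (-0.73 in mandibular and 0.68 in maxillary molars) and *Itga8* (-0.71 in mandibular and 0.44 in maxillary molars). None of the 6 had a maxillary minus incisor difference that passed with the sample set as a block, at -0.01 for *Nefl*, 0.16 for *Cyp26c1*, 0.011 for *Pitx1*, -0.007 for *Clrn1*, 0.06 for *Rtn4rl1* and 0.05 for *Itga8*, with adjusted p of 0.823 or more. Of 11 genes of lower jaw identity none was higher and 3 were lower in the 12 molars, against 9.16% and 5.3% of all genes. Of the 3 lower genes, 2 were *Hand1* and *Hand2*. With the sample set as a block, which also weights the 2 jaws equally, the lower count was 5. The separate medians of the list were -0.002 in mandibular and -0.407 in maxillary molars. The higher count was 1 within the first set and without incisor 4. Between molars 4 of the 11 were higher in mandibular than in maxillary samples and none lower, against 1.4% and 1.59% of all genes. *Dlx6*, a gene of the lower jaw, showed 0.53 in mandibular and -0.89 in maxillary molars against incisors, and *Nkx2-3* showed 0.32 in mandibular and -1.35 in maxillary molars. Neither passed in mandibular molars (adjusted p = 0.129 for *Dlx6* and 0.143 for *Nkx2-3*), so they are not among the 6.

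The sample sets bear on how firmly single genes hold. With the set as a block 46 of the 57 higher and 46 of the 52 lower genes passed at fold 2 in molars against incisors. By the rule that defines the program, passing in both separate comparisons, 41 of the 57 and 39 of the 52 remained. Mandibular molars 1 to 4 alone, in the set of the incisors, passed at fold 2 for 43 and 38. Among those past fold 2 over all samples, the largest that were no longer called with the block (adjusted p under 0.1 and fold above 1.2) were on the higher side *Syn1* (1.57, with the block 0.90, adjusted p = 0.141), a synaptic vesicle protein, with *Plppr5*, *Kcnip3*, *Mir205* and *Dlx1as*. On the lower side they were *Cnmd* (-1.62, with the block -1.30, adjusted p = 0.292), *Cytl1*, the troponin genes *Tnni1* and *Tnnc1*, and *Snord53*. In the first set alone 10 of the 57 higher genes did not pass the adjusted p (*Syn1*, *Enpep*, *Cdh12*, *Gria2*, *Sema7a*, *Stap1*, *Egr3*, *Gfra2*, *Nptx2* and *P3h2*), and 8 of the 52 lower genes (*Acan*, *Cnmd*, *Cxcl14*, *Cytl1*, *Hapln1*, *Tbx5*, *Lmo1* and *Chad*). Mandibular molars 5 to 8 were farther from the incisors than mandibular molars 1 to 4 for 45 of the 57 and 31 of the 52. Within the first set the matrix genes gave 3 higher and 2 lower, the guidance ligands 3 and 2, the retinoid genes 2 and 2, and the dental epithelium markers, of which 3 were higher over all samples, none in either direction. Incisor field factors gave 9 lower within the first set and 11 with the block.

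In the genome the program's genes had a longer median span than all genes tested, and some were neighbours. The median gene span in build GRCm38.p6 was 54.4 kb for the 57 higher genes, 23.8 kb for the 52 lower genes and 19.8 kb for all genes tested. Spans over 500 kb were found for 7 of the 57 (12.3%), 2 of the 52 (3.85%) and 1.16% of all. Mean signal over the 16 samples was 8.41, 7.24 and 7.91 for the 3 sets. Within 1000 kb of each other lay 12 pairs of program genes, 10 of them in the same direction. Such pairs were not counted among all genes tested, so neither number has a background and both are description only. The closest were *Epdr1* and *Sfrp4* (3.35 kb apart, chromosome 13), *Mcpt2* and *Mcpt4* (15.1 kb, chromosome 14) and *Cnnm1* and *Hpse2* (50.6 kb, chromosome 19), all lower in molars. *Cacna2d3* lay 377 kb from *Wnt5a* and 317 kb from *Cacna1d*, and *Alx1* 517 kb from *Nts*. *Cntn4* and *Cntn6* (814 kb) were a pair on the higher side. The pairs of opposite direction were *Gria1* with *Hand1* (498 kb) and *Gria2* with *Rxfp1* (943 kb).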

How the data were processed

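RNA from pools of 4 tooth germs was hybridised to Affymetrix Mouse Gene 1.0 ST arrays. The authors deposited log2 signals made by RMA in Affymetrix Expression Console 1.1 per the labels, and no raw scanner files were used here. A probe set entered a test if any of the samples compared exceeded a log2 signal of 5. Molars were tested against incisors, each molar group against incisors, and mandibular against maxillary molars with limma 3.58.1 in R 4.3.3, two-sided, with Benjamini-Hochberg adjustment over all probe sets kept. This follows the study's thresholds of adjusted p under 0.1 and fold above 2, and lists were counted at a fold above 1.2. A gene was read from its probe set with the highest mean. The script was tested on simulated data. The members and lists were chosen with earlier results of these data known. Genes were named by size of difference (up to 15 leading program genes a direction among those whose molars and incisors do not overlap, up to 4 of each list that passed, up to 6 of opposite sign, up to 6 program genes that differed between jaws at fold 2 and up to 5 a direction that were lost with the sample set as block), and further genes were added by their role after their values were seen. Which embryos went into which pool is not given in the sources used here, so the p-values cover only sample-to-sample spread, which may be technical. The number of arrays limits the precision. Alternatives covered normalization, the signal filter, array weights, the methods' t-test, the sample set and the replicate number as blocks, and leaving out each sample. With the sample set as a block, molars against incisors took the mean of the 2 jaws with equal weight. The main contrast pooled all molars, so these counts and medians differ in weighting as well as in the block.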

Additional observations from a re-analysis of the deposited data

Results flagged for a closer look

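In 22 of 372 groups tested (124 named genes in 3 groups of samples) 1 sample lay far from the others, and chance alone flags about 1 group in 20. Of these, 5 fell on mandibular molar 2, which was highest for *Gsc* (8.80) and *Ttn* (9.16) and lowest for *Hes1* (8.84), *Krt17* (11.37) and *Esrp1* (9.68). It is the sample with the highest muscle and the lowest dental epithelium marker level of the molars. Mandibular molar 8 was highest for *Dpep1* (7.20), *Sprr3* (7.02) and *Nts* (4.63), and maxillary molar 4 for *Dkk4* (7.20), *Hdc* (7.18) and *C1qb* (9.26).

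The other lone values came from several samples. Incisor 2 was highest for *Barx1* (8.91), incisor 4 was lowest for *Cdon* (6.45) and highest for *Hes1* (9.0), incisor 1 was lowest for *Sprr1a* (7.56) and incisor 3 lowest for *S100b* (5.46). Maxillary molar 1 was highest for *Cyp1b1* (9.55), and maxillary molar 3 was lowest for *Stmn2* (7.53) and *Gdf10* (8.71). Mandibular molar 7 was lowest for *Isl1* (5.62), mandibular molar 1 lowest for *Spry4* (8.84) and mandibular molar 4 highest for *Draxin* (7.42).

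For 12 of the 124 named genes the distance to the incisors differed between the jaws, as tested by the mandibular minus maxillary difference at fold 2. Over all genes tested 0.151% were higher and 0.128% lower in mandibular molars. *Nefl*, *Cyp26c1*, *Clrn1*, *Rtn4rl1* and *Itga8* were named for opposite signs in the jaws, and *Alx1* and *Cxcl5* for a jaw difference at fold 2. For these the outcome was largely set by the choice. The difference was negative for *Cyp26c1* (-2.20, adjusted p = 1.94e-06), *Alx1* (-1.68, adjusted p = 5.99e-06), *Rtn4rl1* (-1.40), *Chrdl1* (-1.16), *Itga8* (-1.15) and *Cxcl5* (-1.06). It was positive for *Nefl* (2.22, adjusted p = 0.000802), *Clrn1* (1.04) and the muscle genes *Myh3* (2.14), *Ttn* (1.62), *Actn2* (1.40) and *Tnni1* (1.1). Within the second sample set, which holds both jaws, the values were -2.05 for *Cyp26c1*, -1.66 for *Alx1*, 1.83 for *Nefl* and 1.96 for *Myh3*, while *Tnni1* was 0.77 and no longer passed (adjusted p = 0.222).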

How the results depend on the processing

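The tooth-class counts (87 and 87) and the program counts (57 and 52) stayed within 1.5 times under normalization, filter, array weight and test alternatives. With mandibular molars 1 to 4 only, 56 genes were lower in molars and no program could be formed. With mandibular molars 5 to 8 and maxillary molars the program held 96 higher and 82 lower genes. Leaving out 1 sample gave 72 to 98 higher and 77 to 93 lower tooth-class genes, and 47 to 64 and 45 to 66 program genes. With the sample set as a block the counts were 73 and 74, and 49 and 45 in the program, of which 41 and 39 were in the main program. With the replicate block they were 68 and 63, and 47 and 39. The replicate numbers were not taken to pair the samples, since deviations of same-numbered samples did not correlate above 0.1 in every pair. The correlations were 0.083, 0.197, 0.327 and 0.504 for mandibular molars with incisors, 0.06, -0.07, 0.036 and 0.242 for maxillary molars with incisors, and 0.106, 0.338, 0.003 and 0.143 for mandibular with maxillary molars. A sample correlated best with its own number in 4 of 12 pairs. These pairs used mandibular molars 1 to 4 only. Their pairs with incisors were the only ones within 1 sample set, and all of those correlations were positive. Pairs that included maxillary molars crossed the sets and could not decide the question, so pairing within the first set was not settled. Pairs of mandibular molars 5 to 8 with the maxillary molars of their set were not tested, nor did the replicate block join them. Over 132 results for named genes, 3731 of 4059 alternatives kept direction and call, 327 lost the call and 1 reversed, the maxillary minus incisor difference of *Pitx1* (0.011, adjusted p = 0.993, with the sample set as a block). Comparisons against incisors 2 and 3 only (118 and 87 tooth-class genes, 65 and 40 in the program) and between jaws within the second set were chosen after seeing the data. Pools, 4 samples in the smallest group and sets that the labels do not name limit all values, and levels below 5 have no reliable order.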
